A study of Saccharomyces cerevisiae BY4741 with 6 samples.

Results

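The genes described here are 10 genes of trehalose and glycogen metabolism in the budding yeast Saccharomyces cerevisiae. They were taken by systematic name from the deposited count table, and all 10 were found among its 5631 rows. They are TPS1 (YBR126C), TPS2 (YDR074W), TPS3 (YMR261C), TSL1 (YML100W), NTH1 (YDR001C), GSY1 (YFR015C), GSY2 (YLR258W), GLC3 (YEL011W), GPH1 (YPR160W) and SGA1 (YIL099W). They were selected on their shared pathway, with earlier fold changes and adjusted p-values of the pex3 against WT comparison in view (those of SGA1 among them), so the counts and the median of the group are given as a description of these genes and as no independent evidence of their direction.

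Poly(A) RNA was sequenced from 3 cultures of a pex3 deletion strain, in which the gene for a protein needed to form peroxisomes is replaced by the kanMX4 cassette, and from 3 cultures of its parent BY4741 (WT). Both strains are haploid MATa and carry the same his3, leu2, met15 and ura3 deletions, and each genotype is 1 stock strain of a public collection. Cells were grown in shake flasks at 30 °C on mineral medium with 0.5% acetate, after a preculture on 0.5% glucose, and were harvested at an optical density of 0.5 at 660 nm. The labels call the cultures biological triplicates, and each library's total lay between 6782522 and 9410398 counts.

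Trehalose and glycogen are the 2 storage carbohydrates of yeast. Both derive from glucose 6-phosphate by way of UDP-glucose, and cells on acetate must form glucose 6-phosphate by gluconeogenesis. Both carbohydrates build up when growth slows or cells are stressed. Many of the genes are known to be induced together by the transcription factors Msn2 and Msn4, which are held back by protein kinase A and bind the stress response element, whose core is AGGGG.

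Because Msn2 and Msn4 are known regulators of these genes, the sequence upstream of each was searched for AGGGG on both strands. The 500 bases before the start codon held at least 2 matches in all 10 genes, while 8.13% of 6000 windows of the same length upstream of nuclear protein-coding genes held as many. At least 4 matches were found for 4 of the 10, namely TPS1, TPS2, TSL1 and SGA1, and in 0.45% of all windows. In the shorter window from 250 bases before to 50 bases after the start, 7 of the 10 held at least 1 match, against 21.6% of 6001 windows, and TPS2, GSY1 and GPH1 held none. The 500-base window, chosen after the shorter one had been searched, reached into another annotated gene for 3 of the 10, namely TPS1, TPS3 and TSL1. GGCGGC, the core of the URS1 element of early meiotic genes, was not found in the 500 bases of any of the 10 and was found in 9.57% of all windows. In the shorter window it was found in 1 of the 10, GPH1, at its start codon, and in 5.13% of all windows. A match is a run of letters and no measure of binding.

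The stretch from 450 to 151 bases before the start codon is shown for 4 genes from RefSeq assembly R64, the build named in the submitters' processing notes. TPS1 and TSL1 represent trehalose synthesis, GLC3 glycogen synthesis, and SGA1 is the gene whose pattern across libraries differed most from the others. Each sequence is written 5′ to 3′ on the strand of its gene, and capitals mark AGGGG or its reverse complement CCCCT.
TPS1 (chrII:490543-490842, minus strand): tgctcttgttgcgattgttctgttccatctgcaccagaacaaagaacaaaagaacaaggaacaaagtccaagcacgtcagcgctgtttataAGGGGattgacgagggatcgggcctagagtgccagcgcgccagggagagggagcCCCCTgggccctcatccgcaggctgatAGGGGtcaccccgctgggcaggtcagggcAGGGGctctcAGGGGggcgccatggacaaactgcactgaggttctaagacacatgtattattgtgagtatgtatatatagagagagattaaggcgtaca
TSL1 (chrXIII:70174-70473, plus strand): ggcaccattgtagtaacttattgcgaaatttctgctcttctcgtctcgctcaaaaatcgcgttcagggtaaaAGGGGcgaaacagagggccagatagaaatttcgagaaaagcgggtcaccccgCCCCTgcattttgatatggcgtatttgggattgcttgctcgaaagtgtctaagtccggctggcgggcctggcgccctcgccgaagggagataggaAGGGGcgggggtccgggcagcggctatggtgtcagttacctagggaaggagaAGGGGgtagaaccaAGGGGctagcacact
GLC3 (chrV:132670-132969, plus strand): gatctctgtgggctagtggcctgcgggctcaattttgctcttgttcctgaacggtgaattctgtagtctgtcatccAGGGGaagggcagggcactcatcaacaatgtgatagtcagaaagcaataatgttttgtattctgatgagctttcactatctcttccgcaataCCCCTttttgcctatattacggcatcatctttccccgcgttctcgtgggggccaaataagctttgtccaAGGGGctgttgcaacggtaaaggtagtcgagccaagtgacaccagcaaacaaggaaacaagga
SGA1 (chrIX:177554-177853, plus strand): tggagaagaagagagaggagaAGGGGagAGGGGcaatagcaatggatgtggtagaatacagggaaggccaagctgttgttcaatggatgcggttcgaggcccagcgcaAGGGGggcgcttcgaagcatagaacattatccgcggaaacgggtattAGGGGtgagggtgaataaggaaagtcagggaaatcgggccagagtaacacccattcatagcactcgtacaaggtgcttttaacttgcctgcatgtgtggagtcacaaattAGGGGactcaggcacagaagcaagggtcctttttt
The stretches hold 5 matches for TPS1, 5 for TSL1, 3 for GLC3 and 5 for SGA1. The first 2 matches of SGA1 lie at 429 and 422 bases before its start codon.

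**Figure D1:**
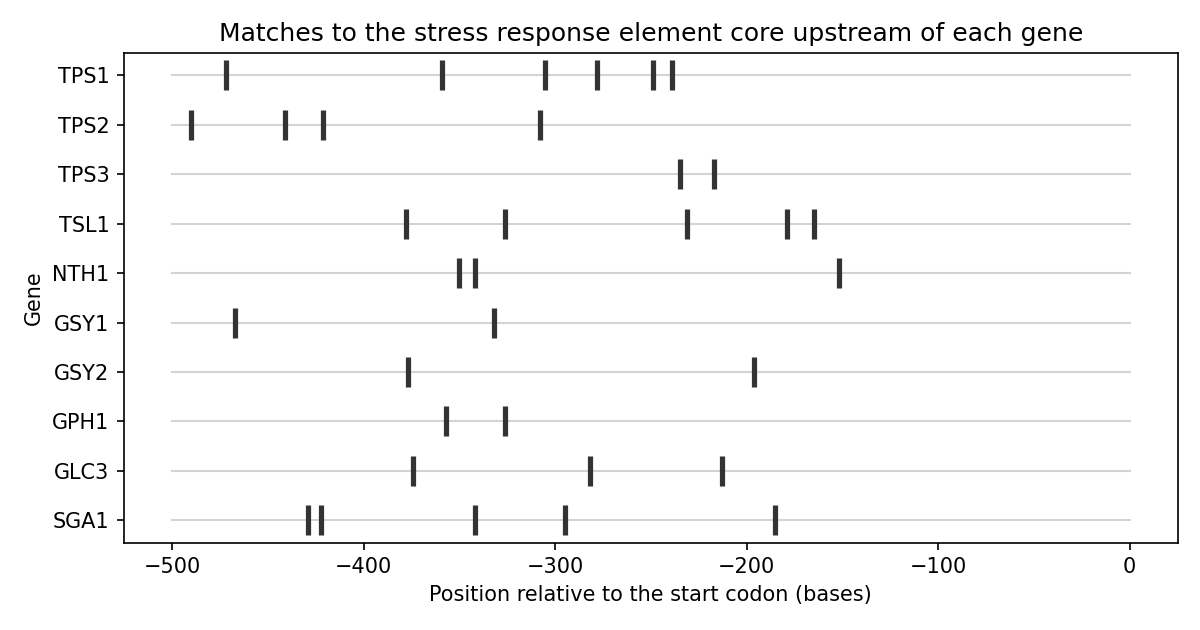
Each bar is a match to AGGGG on either strand in the 500 bases before the start codon of 1 gene. The horizontal axis gives the position in bases relative to the start codon, and each of the 10 genes has from 2 to 6 matches.

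None of the 10 genes overlaps another gene annotated in R64. The most alike pairs in sequence are GSY1 and GSY2, 73.5% identical over 2061 aligned bases, NTH1 and the gene outside the group NTH2, 72.5% over 2149 bases, and TPS3 and TSL1, 68.8% over 1729 bases.

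Levels are given as TMM-scaled CPM (counts scaled to a common library size with edgeR's TMM factors) and, where genes are compared with each other, as CPM per kilobase of coding length. TPS1 had the highest length-scaled level, with 354 ± 49 CPM per kilobase in pex3 and 440 ± 58.6 in WT, where the median row stood at 54.0 and 54.1. SGA1 had the lowest, with 8.1 ± 1.75 CPM per kilobase in pex3 and 16.5 ± 0.898 in WT (SD, n = 3 each). In pex3 the order below TPS1 was GSY2, GLC3, NTH1, TSL1, TPS2, GPH1, TPS3, GSY1 and SGA1. In WT it was GLC3, GSY2, NTH1, TSL1, TPS2, GPH1, GSY1, TPS3 and SGA1. In both strains the range of TPS1 over the 3 libraries lay above that of the next gene and the range of SGA1 below that of its neighbour, and in pex3 the range of GPH1 also lay above that of TPS3. The ranges of the other neighbours in these orders overlapped.

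**Figure D2:**
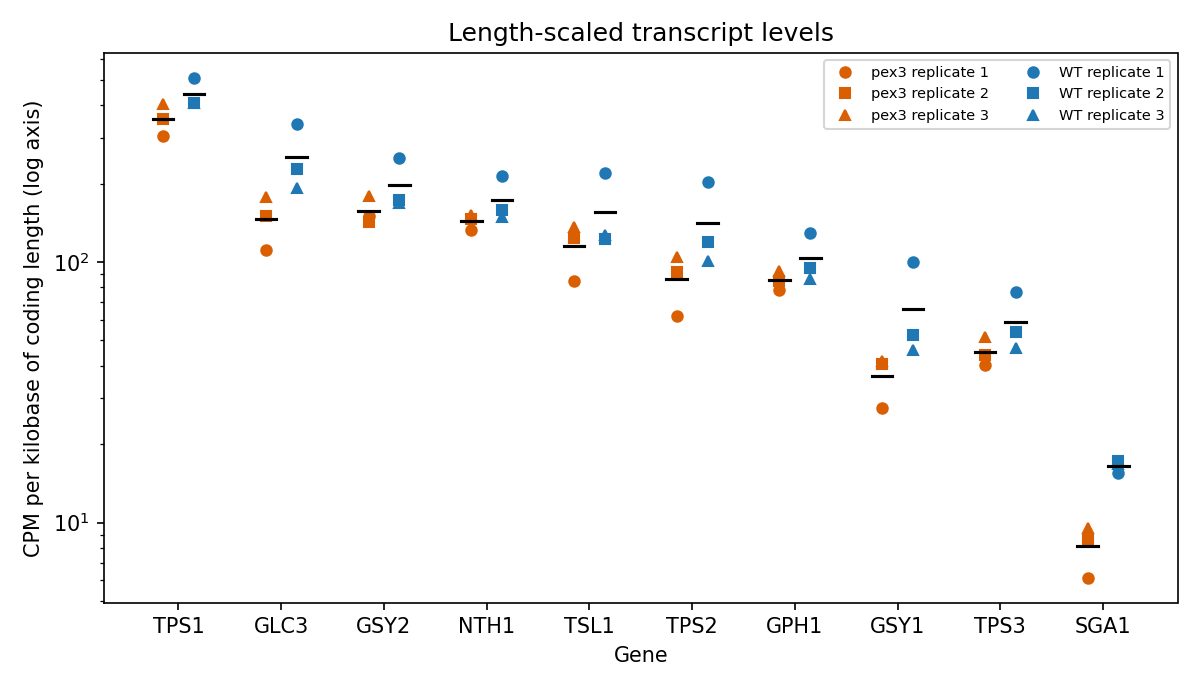
CPM per kilobase of coding length on a log axis for each gene, with pex3 libraries to the left of WT libraries, 1 symbol per replicate, and a black bar at the mean of each strain. TPS1 lies at the top and SGA1 at the bottom in both strains, and the WT replicate 1 circle is the highest point of 9 of the 10 genes.

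The libraries differed among themselves in ways that the strain does not describe. On the first principal component of log2 CPM, WT replicate 1 lay at 20.49, pex3 replicate 1 at -12.25 and the other 4 libraries between -6.2 and 1.56. Deviations of log2 CPM from the gene mean rose with gene length in WT replicate 1 (Spearman 0.324 across genes) and fell with it in WT replicate 3 (-0.381). The listed genes are long, with a median of 2192 bases against 1275 for all rows. No sequencing batch is given. The differences of the 10 genes are therefore given also without WT replicate 1, and the medians of the larger lists without cultures numbered 1.

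In pex3 cells, all 10 genes had fitted levels below those of WT, by 17.3% for NTH1 to 51% for SGA1, but 0 of the 10 passed an adjusted p of 0.05. The fitted log2 fold changes had a median of -0.412 and a range from -1.03 to -0.27, beside a median of 0.006 over all 5628 rows tested, of which 48.6% had a negative value. The test was edgeR's quasi-likelihood test with Benjamini-Hochberg adjustment over all rows, which called 0.178% of rows in either direction and 0.0355% lower. At an unadjusted p under 0.05, 5 of the 10 were lower (TPS1, TPS2, GSY1, GLC3 and SGA1), beside 5.15% of all rows. The strains did not overlap, with pex3 lower, for 4 of the 10 (TPS1, GSY1, GLC3 and SGA1) and for 7.73% of all rows. DESeq2 called 2 of the 10, GLC3 and SGA1, and 0.568% of all rows, as lower, and limma voom called 0. In bulk RNA, fewer cells expressing a gene and less of its RNA per cell cannot be told apart.

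The genes of trehalose synthesis come first. TPS1, the trehalose-6-phosphate synthase, had 455, 527 and 600.3 CPM in pex3 replicates 1, 2 and 3, against 756, 607 and 604 CPM in WT. The strains did not overlap, but pex3 replicate 3 and WT replicate 3 had nearly the same level. The log2 fold change was -0.31 (SE 0.13, edgeR adjusted p 0.527), and -0.20 without WT replicate 1.

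TPS2, the phosphatase that turns trehalose 6-phosphate into trehalose, had 168, 246 and 282 CPM in pex3, against 543, 321 and 271 CPM in WT. WT replicate 1 was the highest and pex3 replicate 1 the lowest, and WT replicate 3 lay below pex3 replicate 3. The log2 fold change was -0.71 (SE 0.28, edgeR adjusted p 0.507), and -0.35 without WT replicate 1.

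TSL1 and TPS3 encode the large regulatory subunits of the synthase complex. TSL1 had 279.7, 408 and 450.3 CPM in pex3, against 720.5, 406 and 417 CPM in WT. The strains overlapped, and only WT replicate 1 and pex3 replicate 1 stood apart. Its log2 fold change was -0.44 (SE 0.25, edgeR adjusted p 0.607). It had the sign of the other genes with either of those libraries left out, and was 0.06 (SE 0.08) without both. TPS3 had 128, 139 and 163 CPM in pex3, against 243, 171 and 148 CPM in WT, which overlap. For TPS3 the log2 fold change was -0.39 (SE 0.18, edgeR adjusted p 0.554), and -0.15 without WT replicate 1.

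NTH1, the neutral trehalase that breaks trehalose down to glucose, had 300, 329 and 341 CPM in pex3, against 481, 357 and 335 CPM in WT. The strains overlapped, since WT replicate 3 lay below pex3 replicate 3. Its log2 fold change of -0.27 was the smallest of the 10 (SE 0.14, edgeR adjusted p 0.574), and it was -0.10 without WT replicate 1.

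Glycogen synthesis was represented by both isoforms of glycogen synthase and by the branching enzyme. GSY1 had 58.6, 86.5 and 88.6 CPM in pex3, against 213, 112 and 97.8 CPM in WT. All pex3 libraries lay below all WT libraries, and WT replicate 1 was 2.03 times the mean of the other WT libraries, the highest such ratio among the 10. The log2 fold change was -0.85 (SE 0.30, edgeR adjusted p 0.491), and -0.43 without WT replicate 1.

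GSY2, the isoform that makes most of the glycogen, had 318, 301 and 381 CPM in pex3, against 532, 367.5 and 356 CPM in WT. The strains overlapped, and GSY2 was the gene of the 10 in which pex3 replicate 1 was not the lowest library. Its log2 fold change was -0.33 (SE 0.17, edgeR adjusted p 0.574), and -0.12 without WT replicate 1. Per length, the log2 ratio of GSY2 to GSY1 was 2.45, 1.8 and 2.11 in pex3, against 1.33, 1.72 and 1.87 in WT, so the ratios overlapped between strains. The log2 ratio of TSL1 to TPS3 averaged 1.33 ± 0.23 in pex3 and 1.38 ± 0.17 in WT (SD, n = 3 each).

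GLC3, the glycogen branching enzyme, had 235, 318 and 377 CPM in pex3, against 719, 480.4 and 405 CPM in WT. The strains did not overlap, with the lowest WT library 1.07 times the highest pex3 library. Its log2 fold change was -0.79 (SE 0.24, edgeR adjusted p 0.457). DESeq2 gave an adjusted p of 0.0468. Without WT replicate 1 the log2 fold change was -0.51, and without both cultures numbered 1 it was -0.35 (SE 0.10, edgeR adjusted p 0.243).

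Glycogen is broken down in the cytosol by GPH1, the glycogen phosphorylase. GPH1 had 212, 229 and 251 CPM in pex3, against 350.1, 256 and 233 CPM in WT. The strains overlapped. The log2 fold change was -0.28 (SE 0.15, edgeR adjusted p 0.59), and -0.08 without WT replicate 1.

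SGA1 encodes an intracellular glucoamylase that is known for breaking down glycogen during sporulation. Its raw counts were 82, 133 and 120 in pex3, against 192, 194 and 262 in WT, the lowest of the group. Scaled for depth these were 10.2, 14.2 and 15.8 CPM in pex3, against 25.6, 28.4 and 27.8 CPM in WT. The strains were separated by a gap, since the lowest WT library had 1.62 times the CPM of the highest pex3 library, and WT replicate 1 was the lowest of the WT libraries. The WT libraries varied with a coefficient of variation of 5.44%, and the pex3 libraries with 21.6%. The log2 fold change was -1.03 (SE 0.17), and -1.07 without WT replicate 1. The edgeR adjusted p was 0.0963. Over the alternatives, which include other tests, the adjusted p ranged from 4.9e-05 with DESeq2 to 0.423 with edgeR and pex3 replicate 2 left out. The fold change itself moved only between -1.16 and -0.87 over the 16 alternatives. Without both cultures numbered 1, it was -0.91 (SE 0.14, edgeR adjusted p 0.0113), while 20 rows, or 0.355%, were called lower there.

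**Figure D3:**
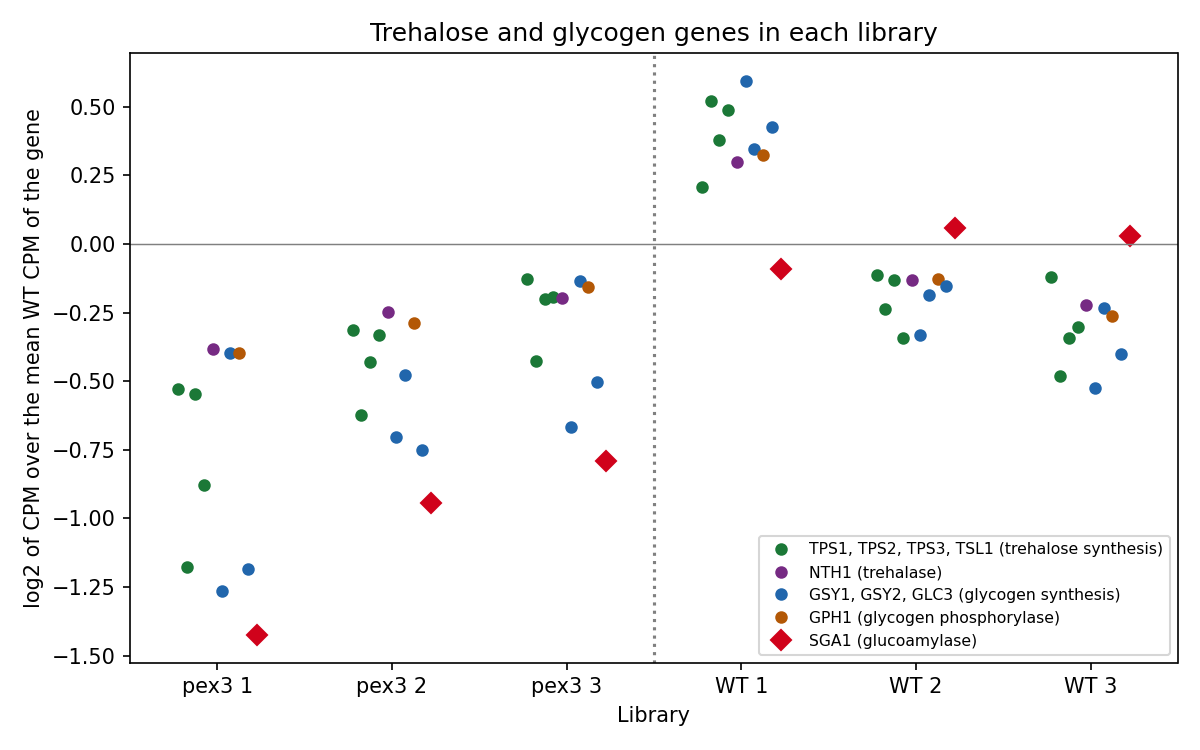
Log2 of the CPM of each gene over its mean in WT, by library, with pex3 libraries on the left and WT libraries on the right. Each point is 1 gene, coloured by its role, and red diamonds mark SGA1. In WT replicate 1 all genes but SGA1 lie above 0, and in pex3 all genes lie below 0 in every library. All genes but SGA1 also lie below 0 in WT replicates 2 and 3, because WT replicate 1 raises their WT mean.

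Across the 6 libraries the 9 genes other than SGA1 varied together. WT replicate 1 was the highest library for all 9, as it was for 25.6% of all rows. Replicate 1 of pex3 was the lowest for 8 of them, the exception being GSY2, and for 25.7% of all rows. Both held for 8 genes at once, and for 11.6% of all rows. The ratio of WT replicate 1 to the mean of the other WT libraries ran from 1.25 for TPS1 to 2.03 for GSY1, where the median row stood at 0.995. For SGA1 it was 0.911. The ratio of pex3 replicate 1 to the mean of the other pex3 libraries ran from 0.635 for TPS2 to 0.932 for GSY2, beside 0.998 for the median row. The summed level of the 10 genes was 2164, 2597 and 2949 CPM in pex3, against 4583, 3106 and 2894 CPM in WT, so that pex3 replicate 3 lay above WT replicate 3. As a description over 6 libraries, the 36 pairs among the 9 genes had Pearson coefficients of log2 CPM from 0.878 to 0.995. The 9 pairs with SGA1 had coefficients from 0.566 to 0.823. These coefficients share the same 6 libraries.

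Leaving out WT replicate 1 kept all 10 genes below WT, but the median moved to -0.175, with 0 called where 0.0533% of all rows were called lower. Without pex3 replicate 1 it was -0.304, also with 0 called where 0.0888% of all rows were called lower. Without both, a choice made after the values were seen, 9 of the 10 were lower, 1 was higher and the median was -0.098. The 9 genes other than SGA1 then lay between -0.35 for GLC3 and 0.06 for TSL1. WT replicate 1 and pex3 replicate 1 moved with the difference of these 9 genes, and what sets those cultures apart was not tested. With a correction for gene length in each library the median was -0.401, and all 10 genes remained lower.

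**Figure D4:**
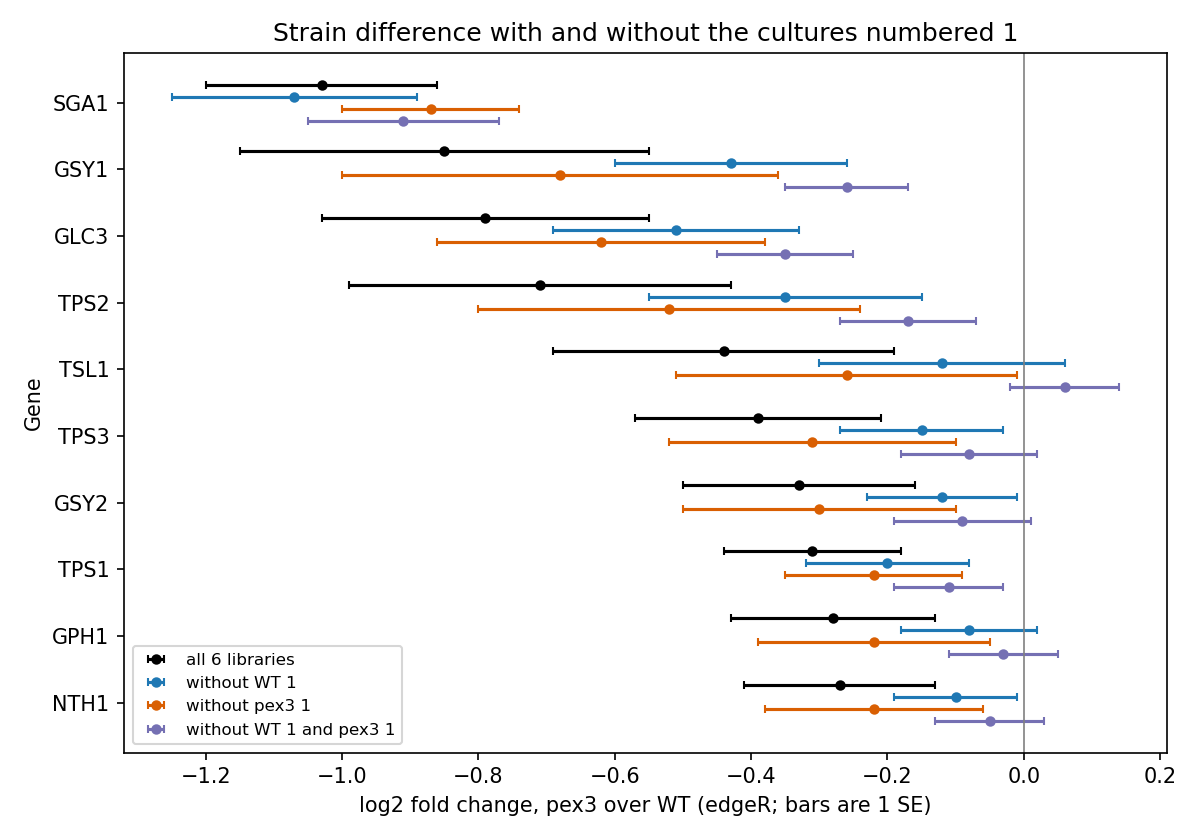
Strain difference of each gene as the edgeR log2 fold change of pex3 over WT, with bars of 1 SE, from all 6 libraries and with WT replicate 1, pex3 replicate 1 or both left out. SGA1 stays between -1.07 and -0.87 in these fits, while the other 9 genes move toward 0 when the cultures numbered 1 are left out.

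The other enzymes of both pathways were compared next. All 8 had a fold change below 0, as did 48.6% of all rows, and their median was -0.232. At an edgeR adjusted p of 0.05, 0 were called, beside 0.178% of all rows. At an unadjusted p under 0.05, 3 were lower, beside 5.15% of all rows. The same shares of all rows apply to the lists that follow. GDB1, the debranching enzyme that works with the phosphorylase, had the largest difference, with 274 ± 30.1 CPM in pex3 and 381 ± 97.5 CPM in WT (SD, n = 3 each) and a log2 fold change of -0.48 (edgeR adjusted p 0.503). PGM2, the main phosphoglucomutase, had 346, 396 and 430.2 CPM in pex3, against 610.4, 494 and 465 CPM in WT. Its strains did not overlap, and the log2 fold change was -0.42 (edgeR adjusted p 0.455). UGP1, which makes UDP-glucose, had 216, 242 and 263 CPM in pex3, against 333, 292 and 282 CPM in WT. It did not overlap either, with a log2 fold change of -0.33 (edgeR adjusted p 0.476).

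Glycogenin, the primer of glycogen, is encoded by GLG1 and GLG2. Their log2 fold changes were -0.32 for GLG1 (edgeR adjusted p 0.57) and -0.13 for GLG2 (edgeR adjusted p 0.635). PGM1, the minor phosphoglucomutase, stood at -0.09, the second neutral trehalase NTH2 at -0.14 and the acid trehalase ATH1 at -0.06 (edgeR adjusted p from 0.587 to 0.913). Per length, the log2 ratio of NTH1 to NTH2 was 1.74, 1.9 and 1.79 in pex3, against 2.24, 1.74 and 1.79 in WT. WT replicate 1 was the highest library for 5 of these 8 genes and for 25.6% of all rows. Without both cultures numbered 1 the list had a median of -0.141 with 7 of 8 lower.

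Among 15 genes for proteins that regulate glycogen synthase, phosphorylase or trehalase, 13 were lower, 2 were higher and 0 were called, with a median of -0.131. Without pex3 replicate 1, 10 were lower and 5 higher, and without both cultures numbered 1 the median was -0.061. GIP2 and PIG2, which encode relatives of the subunits that direct the phosphatase Glc7 to glycogen synthase, had the lowest values. GIP2 had 21.8, 27.4 and 27.2 CPM in pex3, against 60.0, 36.9 and 31.8 CPM in WT, with no overlap and a log2 fold change of -0.75 (edgeR adjusted p 0.476). PIG2 had 33.3, 46.8 and 44 CPM in pex3, against 63.4, 54.6 and 56.2 CPM in WT, also with no overlap and a log2 fold change of -0.49 (edgeR adjusted p 0.438). PCL10, a cyclin of the kinase Pho85 that phosphorylates glycogen synthase, went the other way. It had 57.3, 64.7 and 59.5 CPM in pex3, against 43.2, 47.1 and 54.2 CPM in WT, with no overlap and a log2 fold change of 0.33 (edgeR adjusted p 0.487). PCL7, another Pho85 cyclin, stood at 0.18 with overlapping strains.

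Of 10 genes that regulate the transcription of these enzymes, 7 were lower, 3 were higher and 0 were called, with a median of -0.144, and -0.001 without both cultures numbered 1. MSN2 had 109 ± 5.87 CPM in pex3 and 107 ± 13.2 CPM in WT, and MSN4 had 79.3 ± 5.82 CPM in pex3 and 80.4 ± 19.7 CPM in WT (SD, n = 3 each). TPK2, which encodes a catalytic subunit of protein kinase A, had 54.2, 65.1 and 75.4 CPM in pex3, against 115, 89.6 and 77.5 CPM in WT. The strains did not overlap for TPK2, at a log2 fold change of -0.53 (edgeR adjusted p 0.476). MIG1, a repressor active on glucose, stood at -0.39 with overlapping strains, and TPK3, another protein kinase A subunit gene, at 0.04.

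Of 14 stress genes known as targets of Msn2 and Msn4, 12 were lower, 2 were higher and 0 were called, with a median of -0.295. WT replicate 1 was the highest and pex3 replicate 1 the lowest library for 9 of the 14, and for 11.6% of all rows. CTT1, the cytosolic catalase, had 130.5, 161 and 180 CPM in pex3, against 314, 177 and 171 CPM in WT, which overlap, and a log2 fold change of -0.49 (edgeR adjusted p 0.566). SPI1, a cell wall protein gene, stood at -0.49 with overlapping strains. The strains did not overlap, with pex3 lower, for 4 of the 14 genes and for 7.73% of all rows. At an unadjusted edgeR p under 0.05, 4 of the 14 were lower, beside 5.15% of all rows. HSP12, a small membrane-associated stress protein gene, was at 0.07 and GRE3, an aldose reductase gene, at 0.01. Without both cultures numbered 1 the median of this list was -0.14, and with the correction for gene length it was -0.189.

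Since SGA1 is known from sporulation, genes of that program were examined beside it. Of 12 sporulation markers 9 were tested, of which 6 were lower, 3 higher and 0 called, with a median of -0.141. Without pex3 replicate 1, 5 were lower and 4 higher with a median of -0.026, and without both cultures numbered 1 it was -0.037. Their summed level was 111, 122 and 121 CPM in pex3, against 140.2, 129 and 123 CPM in WT, so all pex3 libraries were below all WT libraries by a small margin. The largest difference was in the kinase gene SPS1, at 5.83 ± 1.28 CPM in pex3 and 8.84 ± 3.08 CPM in WT (SD, n = 3 each). The strains overlapped, at a log2 fold change of -0.59. IME1, the master activator of meiosis, stood at -0.38, NDT80, the activator of the middle sporulation genes, at 0.05 and SPO11, which cuts DNA in meiosis, at 0.20. Per kilobase, the alpha-specific genes STE3 and MF(ALPHA)1 were at 19.7 ± 1.22 and 18 ± 6.28 CPM in pex3 and at 21 ± 2.38 and 25.1 ± 1.3 CPM in WT (SD, n = 3 each). STE2, the pheromone receptor gene of a cells, was at 189.7 ± 11 CPM per kilobase in pex3 and 207 ± 8.79 in WT (SD, n = 3 each). Of 3 alpha-specific markers 2 were tested and of 5 a-specific markers 3, all of them lower and 0 called. BAR1, the protease gene of a cells, had a log2 fold change of -0.27 (edgeR adjusted p 0.491) without overlap of the strains, and ASG7 stood at -0.24. The part of these programs in the difference of SGA1 was not tested.

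The rows outside the group whose log2 CPM over the 6 libraries was most like that of SGA1 were MDG1, MEP1, YSC83, DGA1 and BOP2, with Pearson coefficients from 0.985 to 0.996. MEP1, an ammonium permease gene, had 128, 134 and 136 CPM in pex3, against 153, 155 and 156 CPM in WT. BOP2 had 32.2, 52.8 and 53 CPM in pex3, against 83.7, 84.5 and 85.6 CPM in WT, a log2 fold change of -0.88 (edgeR adjusted p 0.189). Like SGA1, these rows had even WT libraries and lower pex3 libraries. The log2 fold changes of MDG1, MEP1, YSC83 and DGA1 were smaller in size than that of SGA1, at -0.32, -0.22, -0.28 and -0.18. The rows most like the mean of the other 9 genes were BDH2, YLR177W, ATG42, PER33 and RAD4, with coefficients from 0.995 to 0.999. BDH2 had 99.7, 133 and 167 CPM in pex3, against 379, 191 and 161 CPM in WT, with WT replicate 1 far above the rest. These rows were picked for their likeness out of 5628, and their coefficients are a description.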

How the data were processed

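The deposited table holds whole-number read counts per gene or RNA feature, not normalized, which the authors made with tools that the submitters' processing notes list as fastp 0.20.0, STAR and RSEM 1.3.3, on build R64. The role of each tool, any filter, the use of strand and whether the counts are rounded RSEM estimates are not given in the sources used here. RSEM shares reads among similar genes, which can affect paralogues. Columns were matched to samples by strain and number in the titles.

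The test was that of edgeR 4.0.16, run in R 4.3.3 (glmQLFit, glmQLFTest, TMM, filterByExpr, strain as the only term), first on simulated data. filterByExpr removed 3 of 5631 rows. The SE is the log2 fold change divided by the square root of F. Log2 CPM carried a prior count of 2. Alternatives used DESeq2 1.42.0, limma 3.58.1 voom, other scaling and filters, a loess length correction (span 0.3), a replicate block and left-out libraries. Gene similarity was searched with blastn 2.17.0. The strain of each library rests on its label, since PEX3 was not analysed here.

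The members, the other gene lists and the alternatives were chosen with earlier results of these data known. All 10 members and all other enzymes are named, from each other list up to 2 genes with the largest fold change in each direction, and the 5 rows most like SGA1 and most like the other 9 members. MSN4 and STE2 were named apart from that rule. A further gene of the transcription list is not reported here.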

Additional observations from a re-analysis of the deposited data

How the results depend on the processing

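At an adjusted p under 0.05, edgeR called 10 of all rows and 0 of the 10 members. In edgeR, an adjusted p under 0.01 left 3 of all rows and 0 members. DESeq2 at 0.05 called 58 of all rows and 2 members (GLC3 and SGA1). Leaving out each library in turn gave from 3 to 15 called rows, 0 called members and medians of the members from -0.551 to -0.175. Leaving out both cultures numbered 1, chosen after the data were seen, gave 54 called rows, 1 called member (SGA1) and a median of -0.098, with TSL1 at 0.06. The cause was not tested. Under RLE factors, library totals, voom, no filter, a minimum mean count of 50 and the length correction, 0 members were called and all 10 were lower, with medians from -0.419 to -0.388.

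The replicate numbers were also tried as a block. Deviations of same-numbered libraries correlated at -0.16, 0.23 and -0.26, and those of differently numbered libraries at -0.24 to 0.32. With 3 libraries per strain, these values cannot decide whether same-numbered cultures were handled together. The column headers give same-numbered cultures of both strains a common prefix, whose meaning is not given. The replicate block left 1 called row and 0 members, with a median of -0.383, and with the length correction 7 rows, 0 members and -0.383. No p-value here rests on more than 3 cultures per strain, and SGA1, with 82 counts in its lowest library, has the largest counting error of the group.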
